A study of Homo sapiens with 15 samples.

Results

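The 10 genes described here are regulators and products of the bone, cartilage and fat cell lineages. They were taken by gene symbol from the 25681 genes of the count tables: RUNX2, RUNX3, SP7, ALPL, SPP1, BGLAP, ACAN, PPARG, CEBPA and FABP4. Each was measured by RNA-seq in HSSYII cells, a human synovial sarcoma line whose growth depends on the SS18-SSX1 fusion protein. The 5 groups held 3 libraries each. In the first experiment, cells received dBRD9-A (100 nM, 6 hr), a compound that leads to the degradation of the BRD9 subunit of BAF chromatin remodelling complexes, or DMSO as vehicle (6 hr). In the second, cells were infected with a GFP-tagged lentivirus carrying the hairpin shSS18-SSX1-1 or shSS18-SSX1-2, both directed at the fusion, or the control hairpin shRenilla. They were harvested 96 hr after infection without drug selection, so uninfected cells may remain in those libraries. All groups share this cell line and carry the fusion, and 1 line stands in for the disease. In bulk RNA, a smaller number of expressing cells and less RNA per cell cannot be told apart.

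Osteoblasts, chondrocytes and adipocytes all arise from mesenchymal progenitors. RUNX2 opens the osteoblast programme, and the zinc finger factor SP7 (osterix) acts after it. The products ALPL, SPP1 and BGLAP mark a matrix that is being mineralised. ACAN is the large proteoglycan of cartilage and is switched on by SOX9. PPARG and CEBPA together drive fat cell differentiation, and FABP4 is one of their best known targets. RUNX3 is a relative of RUNX2 with known roles in cartilage, neurons and lymphocytes.

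Reads in each library numbered 18580419 to 27031647 after 1 transcript row was kept per gene. Levels are given as CPM, each count taken relative to its library's total after TMM scaling over all 15 libraries. One library stood apart from its group: the chi-square between shRenilla replicate 1 and its group's other libraries, per degree of freedom, was 34.6 and 25.6, and no other pair of replicates exceeded 9.32. SSX1 mRNA, read partly from the fusion, was 20.9, 20.7 and 18.7 CPM with shSS18-SSX1-1 and 29.0, 29.2 and 27.8 CPM with shSS18-SSX1-2, against 77.0, 58.5 and 55.1 CPM with shRenilla. Whether the libraries stem from independent cultures is not stated in the labels. The p-values therefore rest on library-to-library spread that may be technical. All tests used edgeR's quasi-likelihood test, with p-values adjusted by Benjamini-Hochberg over every tested gene, and a gene was called at an adjusted p under 0.05.

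The 10 genes lie on 8 chromosomes (GRCh37, the build of the files). RUNX2 spans chr6:45295894-45632086 on the plus strand, RUNX3 chr1:25226002-25291612 on the minus strand, SPP1 chr4:88896819-88904684 on the plus strand, ALPL chr1:21835890-21904903 on the plus strand, ACAN chr15:89346667-89418584 on the plus strand and CEBPA, a gene with a single exon, chr19:33790840-33793440 on the minus strand. BGLAP, at chr1:156211975-156213108 on the plus strand, shares 394 exonic bases on its own strand with the readthrough transcript PMF1-BGLAP, and CEBPA exons overlap a pair of antisense long non-coding RNAs by 659 and 482 bases. The strand setting of the counting was not found in the labels or methods, so reads of CEBPA and its antisense neighbours cannot be told apart, nor those in the 196 exonic bases that SPP1 shares with an antisense RNA.

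RUNX proteins bind DNA at a short element, and 4 of the promoters are shown because they hold it in genes whose levels are described below. The 250 bases before each annotated start site came from a RefSeq promoter table (GRCh38.p14) that held 17 promoters of 8 of the 10 genes, and each was found once on the same chromosome of GRCh37, whose coordinates are given. The letters TGTGGT were searched on both strands and occur in 10.99% of 34943 promoters of this length. They occur in 6 promoters of 5 of these genes. Only bases before the first annotated exon of a protein-coding gene are printed, with the element in capitals (here always as its reverse complement, ACCACA).
RUNX2, distal promoter, chr6:45295817-45295893, plus strand: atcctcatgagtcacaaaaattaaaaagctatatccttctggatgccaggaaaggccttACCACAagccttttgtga
RUNX3, distal promoter, chr1:25291613-25291751, minus strand: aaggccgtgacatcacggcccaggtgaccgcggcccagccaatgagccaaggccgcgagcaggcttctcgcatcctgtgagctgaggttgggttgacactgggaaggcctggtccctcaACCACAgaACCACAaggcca
SPP1, chr4:88896616-88896818, plus strand: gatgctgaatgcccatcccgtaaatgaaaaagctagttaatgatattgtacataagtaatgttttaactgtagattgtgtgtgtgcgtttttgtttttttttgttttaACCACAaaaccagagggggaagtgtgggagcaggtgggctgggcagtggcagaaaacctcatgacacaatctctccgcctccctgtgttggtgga
BGLAP, chr1:156211725-156211974, plus strand: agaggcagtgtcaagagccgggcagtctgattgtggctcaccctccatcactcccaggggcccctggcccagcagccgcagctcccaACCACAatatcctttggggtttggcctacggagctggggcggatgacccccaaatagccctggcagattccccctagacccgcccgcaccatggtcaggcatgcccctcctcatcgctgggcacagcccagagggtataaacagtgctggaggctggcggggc

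Counted from the start site of the RefSeq table, the first base of the element lies at position -191 in the RUNX2 promoter (a second copy, at -87, falls in an annotated exon and is not printed), at -131 and -123 in RUNX3, at -142 in SPP1 and at -163 in BGLAP. The fifth gene is PPARG, in a pair of overlapping promoters. The proximal promoters of RUNX2 and RUNX3 and the listed promoters of ALPL, ACAN and CEBPA do not hold these letters in the searched window. A TATA box (TATAAA, searched on the gene's strand) was found in the promoters of BGLAP and CEBPA, and in 6.82% of all promoters. The C/EBP element TTGCNNAA was found on either strand in the distal RUNX2 promoter and in 1 PPARG promoter, against 9.06% of all promoters. These matches describe the sequence only, and no binding was measured in these libraries.

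Knockdown of SS18-SSX1 raised the bone and cartilage products SPP1, ALPL and ACAN, which were low or nearly absent in shRenilla cells, and raised RUNX2 by a smaller amount. CEBPA and RUNX3 fell. SPP1 was 13.3-fold and ALPL 10.6-fold higher on average over both hairpins, RUNX2 was 1.59-fold higher, and CEBPA was 2.28-fold and RUNX3 1.81-fold lower. Of 10 genes, 7 could be tested and all 7 were called, 4 higher and 3 lower, where 44.6% of the 14269 tested genes were called, 22.5% higher and 22.1% lower. ALPL and ACAN passed the filter on low counts only through the knockdown libraries, so that count carries no weight of its own. Without them 5 genes remain, 2 higher and 3 lower, with a median log2 fold change of -0.56. The counts that follow include both genes. Without shRenilla replicate 1, 6 were called, the exception being BGLAP. With shSS18-SSX1-1 alone 6 of the 7 were called, where 41.5% of all genes were, and with shSS18-SSX1-2 alone also 6, where 34.2% were.

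**Figure D1:**
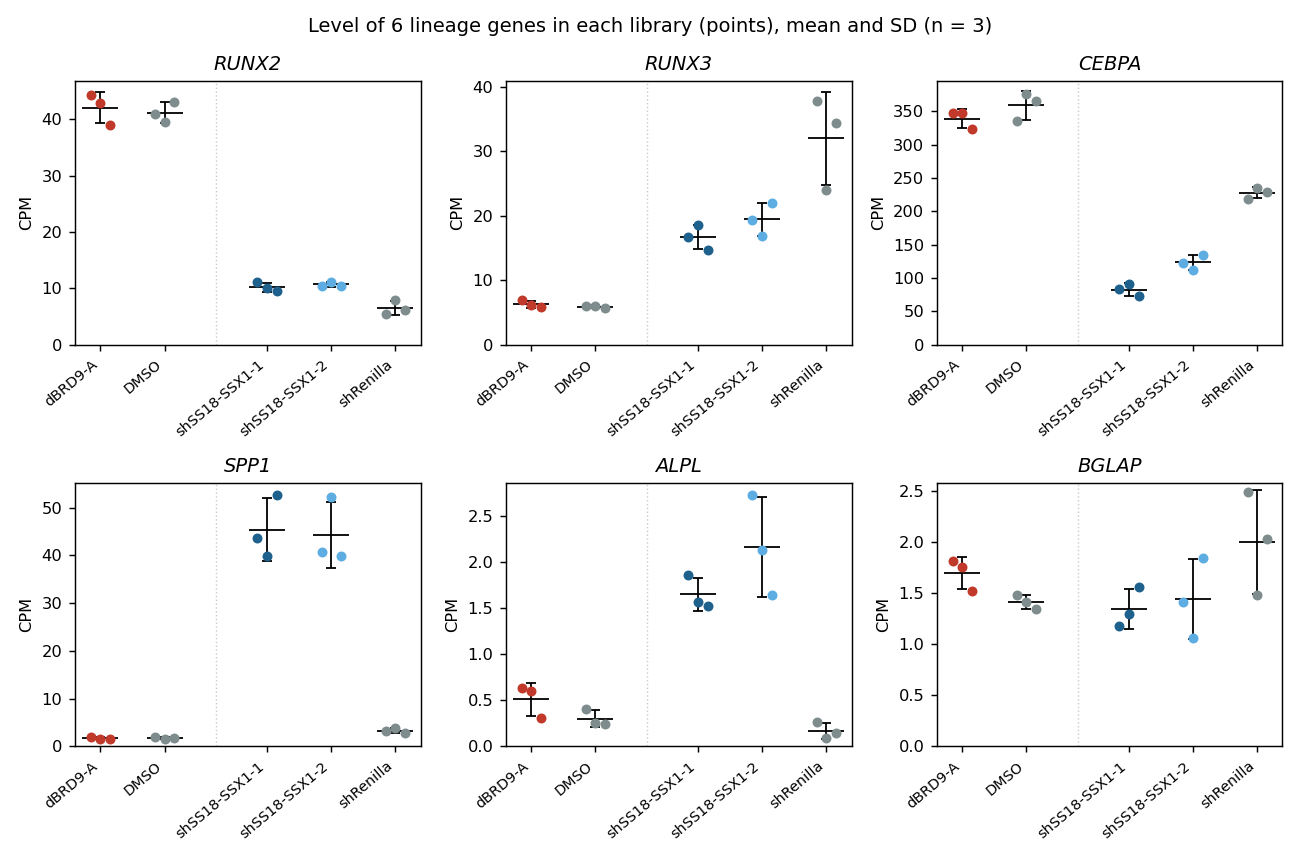
Level of 6 genes in CPM (y axis) by group (x axis), with 1 point per library, the mean as a horizontal bar and the SD as whiskers (n = 3 per group). With either SS18-SSX1 hairpin SPP1 lies at 39.8 CPM or more, against at most 3.95 CPM with shRenilla, while dBRD9-A and DMSO libraries overlap in all panels but BGLAP.

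SPP1 encodes osteopontin, a secreted phosphoprotein of bone matrix that macrophages and other cells also make. It measured 43.7, 39.8 and 52.6 CPM with shSS18-SSX1-1 and 40.7, 52.3 and 39.9 CPM with shSS18-SSX1-2, against 3.17, 3.95 and 2.85 CPM with shRenilla. Every knockdown library lay about an order of magnitude above every control library. The log2 fold change was 3.74 (SE 0.154, the standard error, adjusted p = 3.63e-10, edgeR), and it stayed between 3.66 and 3.89 under 19 other settings. SPP1 was not called between the hairpins, with a log2 difference of -0.06 (SE 0.130) for shSS18-SSX1-2 minus shSS18-SSX1-1.

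Because macrophages and osteoclasts also make SPP1, their markers were read in the same libraries. The summed level of 10 osteoclast and macrophage markers was 10.5 to 12.6 CPM in the 6 knockdown libraries and 5.56 to 7.74 CPM with shRenilla, and DCSTAMP and OCSTAMP, which osteoclast fusion requires, had no count in any library. The summed level of 8 leukocyte markers stayed at or below 0.667 CPM everywhere. Of the 3 testable osteoclast and macrophage markers, CTSK, a collagen-degrading protease, rose by 1.16 on the log2 scale (adjusted p = 3.40e-05, edgeR) and CD68 by 0.51. The part of these genes in the SPP1 level was not tested.

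ALPL, the tissue-nonspecific alkaline phosphatase that mineralising cells carry on their surface, was rare in all groups. It measured 1.86, 1.57 and 1.52 CPM with shSS18-SSX1-1 and 2.73, 2.13 and 1.64 CPM with shSS18-SSX1-2, against 0.264, 0.0897 and 0.145 CPM with shRenilla. No knockdown library overlapped the control range, which rests on 12 reads in all. The log2 fold change was 3.4 (SE 0.325). ALPL passed the filter on low counts only through the knockdown libraries, so its edgeR call carries no weight of its own. From the 253 reads with both hairpins and the 12 with shRenilla, the ratio was 11.1 with a 95% interval of 6.25 to 21.8, which covers counting error only.

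ACAN gave 12, 10 and 26 reads with shSS18-SSX1-1 and 19, 21 and 19 reads with shSS18-SSX1-2, against 0, 0 and 1 read with shRenilla. It had no read in the 6 libraries of the dBRD9-A experiment. The ratio of knockdown to shRenilla was 56.4 with an exact 95% counting interval of 9.91 to 2248. ACAN passed the filter only through the knockdown libraries, so its edgeR call carries no weight of its own. ACAN was thus at a low level in each of the 6 knockdown libraries and at most at 1 read in any other.

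**Figure D2:**
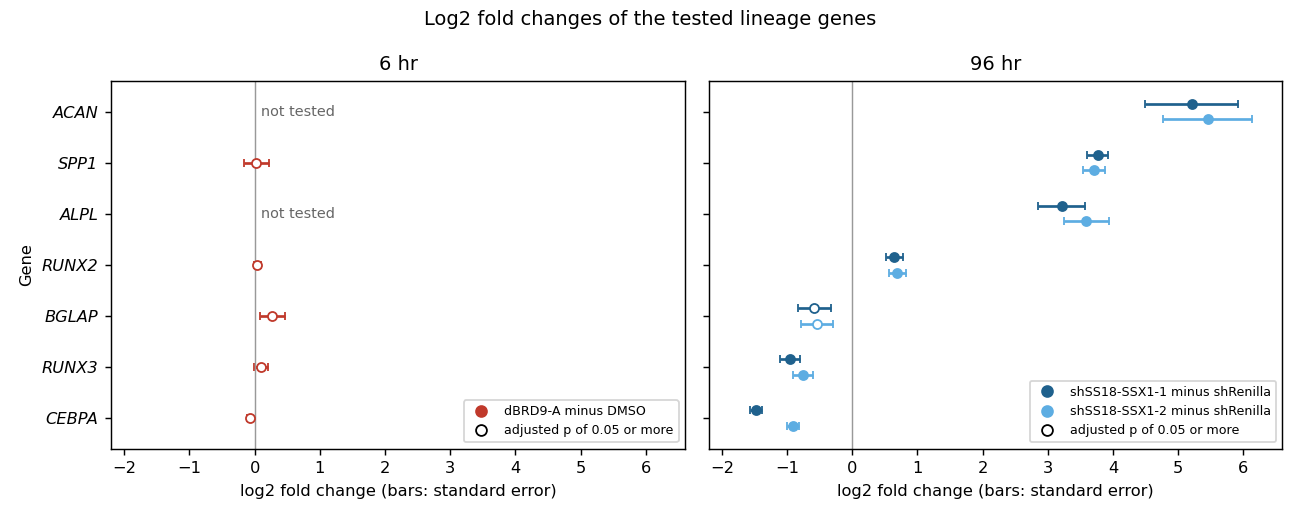
Log2 fold change (x axis) of the tested genes (y axis), 5 on the left and 7 on the right, with the standard error as bars, for dBRD9-A minus DMSO at 6 hr (left) and for each SS18-SSX1 hairpin minus shRenilla at 96 hr (right). Filled points have an adjusted p under 0.05. On the left no point is filled and all lie between -0.08 and 0.27, and on the right BGLAP alone is open for both hairpins. ALPL and ACAN passed the filter on low counts only through the knockdown libraries.

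RUNX2 itself was 11.1, 10.0 and 9.56 CPM with shSS18-SSX1-1 and 10.5, 11.1 and 10.5 CPM with shSS18-SSX1-2, against 5.44, 7.89 and 6.24 CPM with shRenilla. The groups did not overlap. Its log2 fold change was 0.67 (SE 0.118, adjusted p = 0.000395, edgeR). SP7, the next factor of the osteoblast programme, gave 5, 6 and 2 reads with shSS18-SSX1-1 and 4, 2 and 5 reads with shSS18-SSX1-2, against 0, 1 and 1 with shRenilla. This was too few for the filter. By reads alone the ratio was 6.32, with an exact 95% counting interval of 1.57 to 55.2. IBSP, a late osteoblast matrix gene, and DLX5, a homeobox factor of osteoblasts, stayed under 0.14 CPM in every library.

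BGLAP (osteocalcin), the most bone-restricted of these products, did not follow SPP1 and ALPL. It measured 1.18, 1.30 and 1.56 CPM with shSS18-SSX1-1 and 1.41, 1.06 and 1.85 CPM with shSS18-SSX1-2, against 2.49, 1.48 and 2.03 CPM with shRenilla. The groups overlap, and the highest value is that of the shRenilla library that stood apart. The log2 fold change of -0.56 (SE 0.212) reached an adjusted p of 0.0457 (edgeR), but neither hairpin reached the threshold alone (adjusted p = 0.0788 and 0.112). Without shRenilla replicate 1 the log2 fold change was -0.33 and the adjusted p was 0.281. The call also ended without shRenilla replicate 3, shSS18-SSX1-1 replicate 1 or 2, or shSS18-SSX1-2 replicate 1 or 2. PMF1-BGLAP, whose last exons BGLAP shares, fell by 0.48 on the log2 scale, and PMF1, with which that transcript begins, fell by 0.49. How many of the BGLAP reads belong to the readthrough transcript was not tested.

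CEBPA, a leucine zipper factor of fat cells, granulocytes and liver, fell with both hairpins but not to the same level. It measured 83.9, 91.5 and 72.8 CPM with shSS18-SSX1-1 and 123, 113 and 135 CPM with shSS18-SSX1-2, against 219, 236 and 229.6 CPM with shRenilla. The 3 groups do not overlap one another. The log2 fold change was -1.47 (SE 0.0926) for the first hairpin and -0.91 (SE 0.0910) for the second. The difference between the hairpins, 0.56 (SE 0.0918), was called at an adjusted p of 0.0368 (edgeR), in a comparison that called 0.147% of all genes, and the other 6 tested genes were not. That call was lost on leaving out shRenilla replicate 3, any shSS18-SSX1-1 library, or shSS18-SSX1-2 replicate 1 or 3 (adjusted p up to 0.186), while the size of the difference stayed between 0.47 and 0.63. SSX1 mRNA was lower with the first hairpin than with the second, by the values given above, and a link to the CEBPA level was not tested.

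RUNX3 was 16.7, 18.5 and 14.7 CPM with shSS18-SSX1-1 and 19.4, 16.9 and 22.0 CPM with shSS18-SSX1-2, against 37.7, 23.9 and 34.3 CPM with shRenilla. The lowest shRenilla library lies just above the highest knockdown library. The log2 fold change was -0.85 (SE 0.131, adjusted p = 0.000121, edgeR), and it was -0.69 to -1.01 over 19 other settings. RUNX2 and RUNX3 therefore moved in opposite directions, while RUNX1 (0.06, adjusted p = 0.748) and their shared partner CBFB (0.09, adjusted p = 0.445) were not called. Among the corepressors of this family, RUNX1T1 rose by 0.54 and CBFA2T2 by 0.46 on the log2 scale, and CBFA2T3 had a log2 fold change of -2.27 but passed the filter only through shRenilla.

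Of the genes that mark fat cells, FABP4, ADIPOQ, PPARG and LPL were at or near 0, while CEBPA was well expressed in all 15 libraries. FABP4 had no read in any of the 15 libraries, which at 3 counts allows up to 0.00884 CPM, and ADIPOQ, the adipocyte hormone adiponectin, had none either. PPARG had no read with shSS18-SSX1-1, 1 read in each shSS18-SSX1-2 library and none with shRenilla, so no fold is given. LPL, the lipoprotein lipase of fat cells, stayed at or below 0.120 CPM. Other C/EBP factors were well expressed. CEBPD measured 47.1, 47.2 and 60.6 CPM with shSS18-SSX1-1 and 41.5, 51.2 and 43.4 CPM with shSS18-SSX1-2, against 9.62, 11.6 and 10.4 CPM with shRenilla, a log2 fold change of 2.19 (adjusted p = 5.28e-09, edgeR). CEBPB rose by 0.87 and CEBPG fell by 0.50. In this family CEBPA thus fell while CEBPB and CEBPD, which act before it in fat cell differentiation, rose.

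**Figure D3:**
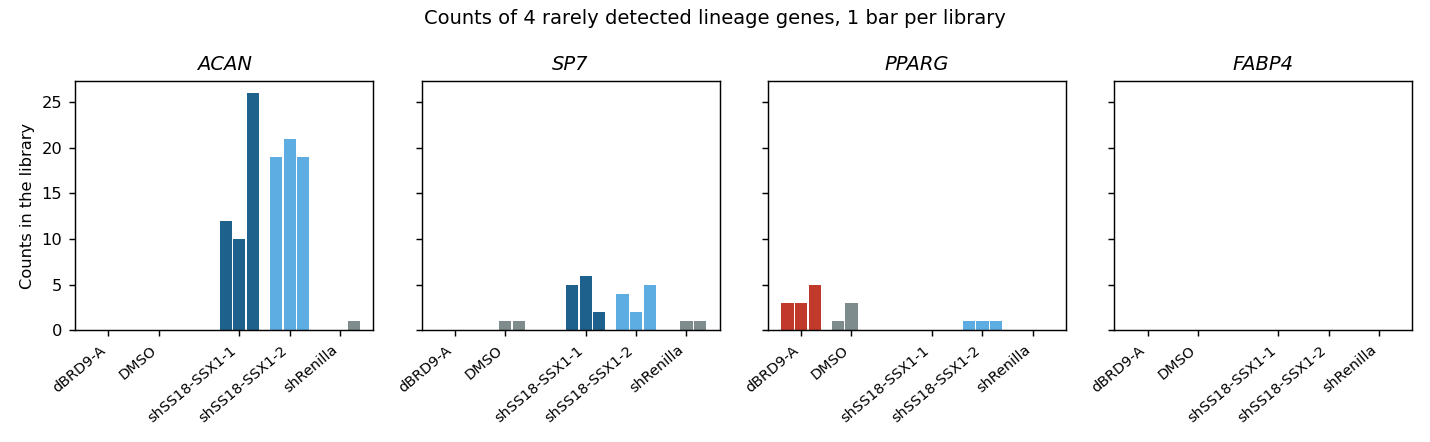
Reads per library (y axis, 1 bar for each of 3 libraries) of the 4 rarest genes by group (x axis). ACAN has 10 to 26 reads in each knockdown library and at most 1 elsewhere, SP7 and PPARG never exceed 6, and FABP4 has none.

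None of the 5 genes that could be tested was called after 6 hr of dBRD9-A. RUNX2, RUNX3, SPP1, BGLAP and CEBPA all stayed within 1.21-fold of DMSO. In the same comparison 35.9% of the 13652 tested genes were called, most of them by small amounts, since 2.83% also passed a 1.5-fold change. Of the 5 genes, 0 were called by edgeR, DESeq2 or limma with voom, and 1, CEBPA, had an unadjusted p under 0.05 in edgeR. The other 5 genes had too few reads.

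RUNX2 was 44.4, 42.9 and 39.1 CPM with dBRD9-A and 40.9, 39.5 and 43.1 CPM with DMSO, a log2 fold change of 0.04 (SE 0.0515, adjusted p = 0.569, edgeR). RUNX3 was 6.86, 6.15 and 5.79 CPM with dBRD9-A and 6.02, 6.04 and 5.63 CPM with DMSO, a log2 fold change of 0.09 (SE 0.104). The groups overlap for both. CEBPA, at 347, 347 and 323 CPM with dBRD9-A and 335, 375 and 366 CPM with DMSO, had a log2 fold change of -0.08 (SE 0.0356, adjusted p = 0.1003, edgeR). It was called only when DMSO replicate 1 was left out, at -0.13 and an adjusted p of 0.00113.

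SPP1 was 2.02, 1.56 and 1.61 CPM with dBRD9-A and 1.89, 1.46 and 1.78 CPM with DMSO. Its log2 fold change of 0.03 has a standard error of 0.192. BGLAP was 1.81, 1.76 and 1.52 CPM with dBRD9-A and 1.48, 1.41 and 1.35 CPM with DMSO. The groups do not overlap, but the log2 fold change of 0.27 (SE 0.194) was not called (adjusted p = 0.294, edgeR). PMF1 and PMF1-BGLAP, which were called, had log2 fold changes of 0.33 and 0.34.

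The rarer genes gave few reads in this experiment. ALPL had 15, 15 and 7 reads with dBRD9-A and 9, 6 and 5 with DMSO, a ratio of 1.71 with a 95% counting interval of 0.968 to 3.11. PPARG had 3, 3 and 5 reads with dBRD9-A and 1, 3 and 0 with DMSO, a ratio of 2.54 with an interval of 0.754 to 10.96. Both intervals include no difference. SP7 had no read with dBRD9-A and 2 with DMSO, and ACAN and FABP4 had none with either.

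The response to dBRD9-A differed from the response to knockdown for SPP1, RUNX2, CEBPA, RUNX3 and BGLAP, by a test of the difference in all 15 libraries. That fit tested 7 of the 10 genes and called 6, ALPL included, where it called 36.6% of 14560 genes. The ALPL call carries no weight, for the reason given below. Subtracting the knockdown effect from that of dBRD9-A gave -3.73 for SPP1, -2.65 for ALPL, -0.65 for RUNX2, 1.09 for CEBPA, 0.93 for RUNX3 and 0.81 for BGLAP on the log2 scale. The largest adjusted p among them was 0.0347, for BGLAP (edgeR), and its call ended on leaving out dBRD9-A replicate 1 or 2, any DMSO library, shSS18-SSX1-1 replicate 1, shSS18-SSX1-2 replicate 2, or shRenilla replicate 1 or 3, with adjusted p up to 0.117. It also ended in DESeq2 and with the rows of a gene summed. The experiments differ in duration (6 hr and 96 hr), in infection and in target, and these cannot be told apart. ACAN had no read in either group of the first experiment, so no difference is given. ALPL had too few reads for a test there and entered this fit through the knockdown libraries, so its call carries no weight.

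The 2 control groups were far apart for both RUNX genes. RUNX2 averaged 6.52 ± 1.25 CPM with shRenilla and 41.2 ± 1.84 CPM with DMSO (SD, n = 3 each), a log2 difference of -2.66 (SE 0.105, adjusted p = 2.40e-13, edgeR). RUNX3 averaged 32.0 ± 7.20 CPM with shRenilla and 5.89 ± 0.232 CPM with DMSO, a log2 difference of 2.44 (SE 0.152). Of the 7 tested genes 4 were called between shRenilla and DMSO, where 54.5% of all 14560 tested genes were called, and the other 2 were SPP1 (0.96) and CEBPA (-0.65). Duration, infection and experiment cannot be told apart here.

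Among all 5 groups RUNX2 was highest in the DMSO and dBRD9-A libraries, which overlap, lower in the 2 hairpin groups, which also overlap, and lowest with shRenilla. RUNX3 had the reverse order, lowest in DMSO and dBRD9-A and highest with shRenilla. For both genes the knockdown values therefore lie between those of the shRenilla and DMSO libraries. CEBPA averaged 82.7 ± 9.38 CPM in shSS18-SSX1-1 libraries, 123 ± 11.02 CPM in shSS18-SSX1-2 libraries and 228 ± 8.37 CPM in shRenilla libraries (SD, n = 3 each). It averaged 339 ± 13.8 CPM with dBRD9-A and 359 ± 21.2 CPM with DMSO.

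Across the 15 libraries, the genes most like SPP1 in log2 level, out of 12976, were TAGLN, a smooth muscle actin-binding protein, FTH1, the ferritin heavy chain, and FILIP1L, each with Pearson's r rounding to 0.996 or 0.995. TAGLN averaged 521 CPM in shSS18-SSX1-1 libraries, 528 CPM in shSS18-SSX1-2 libraries and 14.4 CPM in shRenilla libraries. The nearest to RUNX2 were COL14A1, a fibril-associated collagen (r = 0.991), C1RL and PHACTR2. COL14A1 averaged 184 CPM and 163 CPM with the 2 hairpins and 116 CPM with shRenilla, and 1614 CPM with dBRD9-A and 1615 CPM with DMSO. The nearest to RUNX3 were NFAM1 (r = 0.996), HES2 and DNAJC11. These values describe 15 points that share 5 group levels, and carry no test.

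Other genes of the 3 lineages were read from lists, leaving out the 10 genes. For bone, 13 further genes could be tested after knockdown, of which 7 were higher, 3 lower and 3 not called, where 22.5% of all tested genes were higher and 22.1% lower. SOST, DLX3 and PANX3 passed the filter on low counts only through the knockdown libraries and ENPP1 only through shRenilla. Without these, 5 of 9 were higher and 2 lower, with a median log2 fold change of 0.63 against -0.01 over all genes. COL1A1, a chain of the main collagen of bone, measured 396, 396 and 368 CPM with shSS18-SSX1-1 and 576, 582 and 570 CPM with shSS18-SSX1-2, against 4.19, 2.33 and 3.34 CPM with shRenilla, a log2 fold change of 7.13 (SE 0.141, adjusted p = 3.02e-13, edgeR). The homeobox factor DLX3 rose by 3.20 and the matrix protein SPARC by 3.10. Lower genes included MSX1 (-1.04), a homeobox factor of skeletal development.

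**Figure D4:**
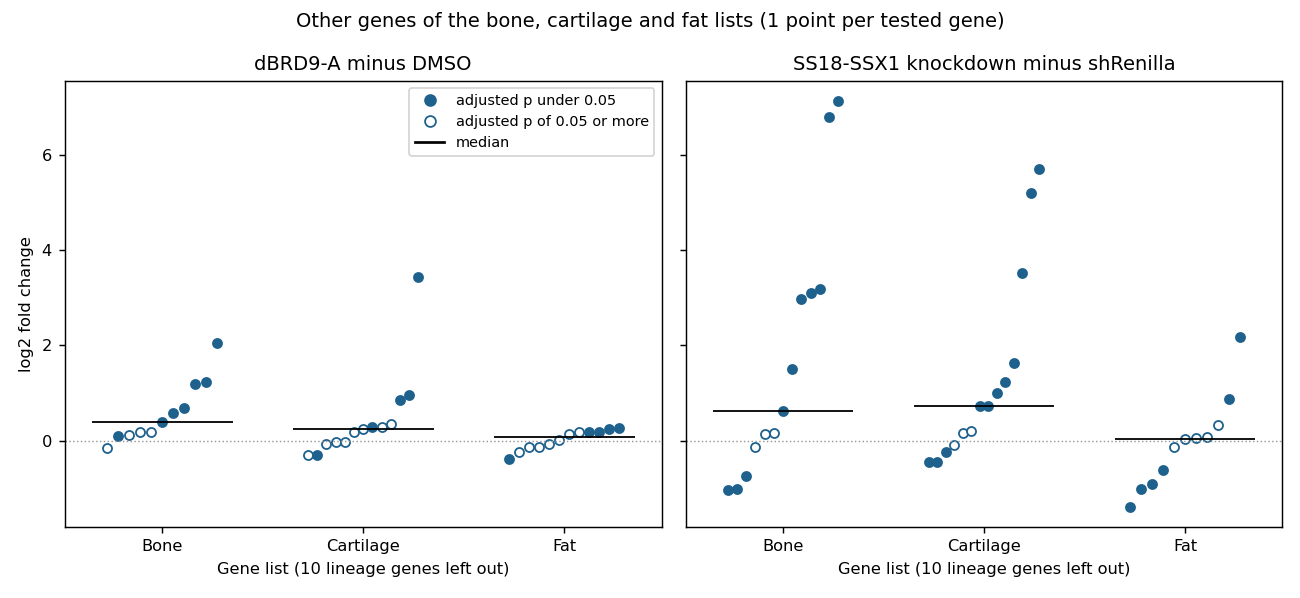
Log2 fold change (y axis) of each further tested gene of the bone, cartilage and fat lists (x axis), with the 10 genes left out, after dBRD9-A (left) and after SS18-SSX1 knockdown (right). Filled points have an adjusted p under 0.05 and the line is the median, which after knockdown is 0.63 for bone, 0.73 for cartilage and 0.03 for fat. Genes that passed the filter only through 1 group are drawn, and without them the cartilage median is 0.19.

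For cartilage, 14 further genes were tested after knockdown, 8 higher and 3 lower, but MATN4, CILP, COL11A1 and CHAD passed the filter only through the knockdown libraries. Without them 4 of 10 were higher and 3 lower, with a median of 0.19, where 44.6% of all genes were called. SOX9, the factor that switches on ACAN, measured 7.25, 7.40 and 9.44 CPM with shSS18-SSX1-1 and 6.41, 7.29 and 6.78 CPM with shSS18-SSX1-2, against 3.17, 4.22 and 3.58 CPM with shRenilla, a log2 fold change of 1.01 (adjusted p = 3.35e-05, edgeR). COL2A1, the collagen of cartilage, rose by 0.74 and COL9A2 by 1.64. Among the 3 lower genes was NKX3-2 (-0.45, adjusted p = 0.000748, edgeR). The matrix proteins MATN4 and CILP had log2 fold changes of 5.71 and 5.20. Both passed the filter only through the knockdown libraries, so these values carry no weight of their own. For fat, 11 further genes gave 2 higher and 4 lower with a median of 0.03, beside 22.5% higher and 22.1% lower over all genes. The higher ones were CEBPD (2.19) and CEBPB (0.87). The lower ones included EBF2, a factor of brown fat precursors (-1.38), AGPAT2, an enzyme of triglyceride synthesis (-1.03), and LIPE, the hormone-sensitive lipase (-0.63). With shSS18-SSX1-2 alone LIPE was not called (-0.37, adjusted p = 0.157, edgeR).

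After dBRD9-A, 7 of 11 further bone genes were higher and 0 lower, and without DLX3, which passed the filter only through the dBRD9-A libraries, 6 of 10 were higher. The median log2 fold change of those 10 was 0.30 against 0.01 over all genes, where 17.7% of all tested genes were higher and 18.2% lower. FAM20C, a kinase that phosphorylates secreted matrix proteins such as osteopontin, measured 11.4, 13.1 and 11.5 CPM with dBRD9-A and 4.72, 5.31 and 5.29 CPM with DMSO, a log2 fold change of 1.24 (SE 0.0960, adjusted p = 1.46e-11, edgeR). PTH1R, the parathyroid hormone receptor, rose by 1.19 and COL1A1 by 0.69. Of 13 cartilage genes 4 were higher and 1 lower, and without MATN4 and IHH, which passed only through the dBRD9-A libraries, 2 of 11 were higher, COL2A1 among them (0.28) and NKX3-2, a repressor in early cartilage, the lower (-0.29). Of 12 fat genes 4 were higher and 1, LIPE (-0.39), lower. Under 16 other settings the LIPE call was lost in 5, and of the higher genes that of EBF2 in 11 and those of CEBPB and CEBPD in 7 each, while DGAT2 kept its call. In the RUNX and core binding factor list RUNX1 was higher (0.44, adjusted p = 0.000522) and the corepressor CBFA2T3 lower (-0.38). In the C/EBP and PPAR families PPARA, a receptor for fatty acids, was lower (-0.38) and DDIT3, a C/EBP relative induced by stress, higher (0.32).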

How the data were processed

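RNA-seq libraries of HSSYII cells (NEBNext kit, Illumina sequencing) were analysed from 15 deposited tables of raw counts per RefSeq transcript, which the authors made with STAR and featureCounts on hg19 (GRCh37). Neither versions nor strand settings were found in the labels or methods. Spike-in RNA is named in the methods, but no spike-in row was found in these tables, so TMM scaling cannot show a shift shared by all genes. One deposited table, of other format, had 4535 symbols broken across cells, and the count was read from the last word. For each gene the transcript row with the highest sum was kept.

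edgeR 4.0.16 in R 4.3.3 was used with filterByExpr (minimum count 10), robust quasi-likelihood tests, and 1 fit per experiment. SE was taken as |log2 fold change|/√F. The difference of effects and shRenilla minus DMSO used all 15 libraries. Also tried were voom (limma 3.58.1), DESeq2 1.42.0, 3 scalings, 2 filters, summed rows, a block on replicate number and each library's omission. Scripts were tested on simulated data. The genes and lists were chosen with earlier results of these data known. Named list genes are, per list, up to 3 called genes with the largest change whose mean reached 1 CPM and whose groups were apart, and 10 anchors. MSX1, CD68, PANX3, ENPP1, CHAD, COL11A1, and LIPE, NKX3-2 and CBFA2T3 after knockdown, were named after their values were seen. Promoters are from RefSeq (GRCh38.p14), matched to GRCh37.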

Additional observations from a re-analysis of the deposited data

Results flagged for a closer look

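Of the 10 genes 7 were tested for a difference between the dBRD9-A effect (6 hr) and the SS18-SSX1 knockdown effect (96 hr) (edgeR, all 15 libraries). The test called 6, ALPL included. Subtracting the knockdown effect from that of dBRD9-A gave, on the log2 scale, -3.73 for SPP1 (adjusted p = 2.04e-08) and -0.65 for RUNX2 (adjusted p = 0.000893). The value was 1.09 for CEBPA (adjusted p = 1.72e-07), 0.93 for RUNX3 (adjusted p = 0.00186) and 0.81 for BGLAP (adjusted p = 0.0347). The BGLAP call was lost under 11 of 24 other settings. For ALPL it was -2.65, but ALPL had too few reads for a test after dBRD9-A. It entered this fit through the knockdown libraries, so its call carries no weight. The hairpins differed for CEBPA, with shSS18-SSX1-2 higher than shSS18-SSX1-1 by 0.56 on the log2 scale (adjusted p = 0.0368). That call was lost under 8 of 19 other settings. Groups of 3 libraries are too small for a test of single outlying values.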

How the results depend on the processing

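After knockdown, RUNX2, RUNX3, SPP1 and CEBPA kept their direction and their call under each of 19 alternatives. ALPL and ACAN did so too (19, and 18 for ACAN, which a mean of 1 CPM removes). Those 2 passed the filter only through the knockdown libraries, so their calls carry no weight of their own. The BGLAP call was lost under 10 of 19, and its values over all 19 were -0.72 to -0.33. No result changed sign past a threshold. The number of the 10 genes called after dBRD9-A ranged from 0 to 1 when single libraries were left out, and all genes called there fell to 1500 in the fit of all 15 libraries, from 4906. Between the hairpins 21 genes were called, against 32 with DESeq2 size factors, 32 with total counts, 123 without a filter, 33 with a mean of at least 1 CPM, 147 in DESeq2, 12 with rows summed, 246 in the fit of all 15 libraries and 5 to 112 with single libraries left out. Of the 10 genes, CEBPA was called there or not (1 or 0), and 0 were with rows summed and with a replicate block. Same-numbered libraries correlated at -0.27 to 0.22 in their deviations, so the numbers do not pair the samples, and a replicate block left 13 genes called between the hairpins. For CEBPA it gave an adjusted p of 0.111, which is no weaker effect (0.56). The block left the other counts of these genes as they were: 0 after dBRD9-A, 7 after knockdown, 6 for the difference of effects and 4 for shRenilla minus DMSO. The 7 include ALPL and ACAN and the 6 include ALPL, whose calls carry no weight of their own. Depth limits SP7, PPARG and FABP4, which had 28, 18 and 0 reads in all 15 libraries.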

Other observations

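A rare cartilage gene and a rare bone gene were noted after their values were seen. IHH, the hedgehog ligand that paces growth plate cartilage, had 11, 16 and 12 reads with dBRD9-A and 1, 1 and 1 with DMSO, a ratio of 12.0 with an exact 95% counting interval of 3.82 to 60.9. It passed the filter only through the dBRD9-A libraries, so no test is given. In the 6 knockdown libraries IHH had 6 reads, against 9 in the 3 shRenilla libraries, a ratio of 0.351 with an interval of 0.103 to 1.11. SOST (sclerostin), a product of osteocytes, had 8, 12 and 13 reads with shSS18-SSX1-1 and 17, 14 and 20 with shSS18-SSX1-2, against none with shRenilla. The exact lower 95% counting limit of the SOST ratio was 11.7. Against an assumed floor of 3 counts over the shRenilla group, SOST was 14.8-fold higher. It passed the filter only through the knockdown libraries, so no test is given.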
